A study of Mus musculus with 6 samples.

Results

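The receptors for IL-2, IL-15, IL-12 and IL-21 and the proteins that pass their signals on were examined in NK cells of fibrotic mouse liver that had been split by CD36 into a CD36+ NK and a CD36- NK fraction. The set was given as a list of 10 gene symbols, namely the ligand gene Il15, the alpha chain genes Il2ra and Il15ra, the shared chain genes Il2rb and Il2rg, the IL-12 receptor genes Il12rb1 and Il12rb2, the IL-21 receptor gene Il21r, the kinase gene Jak3 and the transcription factor gene Stat4. All 10 symbols were found among the 57180 genes of the deposited table, and all 10 had enough counts to be among the 14761 genes tested.

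These cytokines act through receptors that have no enzyme activity of their own. IL-2 and IL-15 share the beta chain CD122 (Il2rb) and the common gamma chain (Il2rg), and each has a private alpha chain that raises affinity or, for IL-15, presents the cytokine to a neighbouring cell. IL-21 pairs its own chain with the common gamma chain, to which JAK3 binds, whereas IL-12 uses a beta 1 and a beta 2 chain and signals mainly through STAT4. NK cells need IL-15 to develop and survive, and IL-12 is a classical inducer of their interferon gamma.

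Both groups came from male wild-type C57BL/6J mice of 6 to 8 weeks of age in which liver fibrosis had been induced by intraperitoneal CCl4 in olive oil over 4 weeks, so the controls carry the same injury. NK cells were gated as CD3- NK1.1+, sorted by CD36, and total RNA was sequenced from 3 CD36+ NK and 3 CD36- NK samples. Neither the labels nor the methods say whether animals were pooled or whether both fractions came from the same animals, so the p-values measure the spread between these samples. The libraries held 10292480 to 13787189 counts. Levels are in CPM, that is, counts divided by a library size that edgeR's TMM factors had adjusted. A gene was called a DEG where edgeR's quasi-likelihood test gave an adjusted p under 0.05 and the groups differed by more than 2-fold. SE stands for the standard error of a log2 fold change.

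Library names and sample titles disagree on the sign of CD36, and groups follow the titles. Cd36 itself stood at 109.7, 262.6 and 237.7 CPM in the libraries titled CD36+ NK and at 14.3, 31.7 and 17.1 CPM in those titled CD36- NK. Markers of other cells were present in both groups although both were gated as NK cells. The summed level of 12 macrophage and Kupffer cell genes lay between 6736 and 9368 CPM in CD36+ NK and between 2472 and 5812 CPM in CD36- NK, with 4 of 10 tested genes called higher. Most of this sum in CD36- NK was Lyz2, whose log2 fold change was 0.10 (edgeR adjusted p = 0.882), and without Lyz2, left out after its values were seen, the sums were 2431 to 5882 CPM against 420.0 to 1482 CPM. The erythroid list was at 345 to 779 and 74.7 to 163 CPM, with 5 of 7 genes called higher, and 2 of 7 T cell genes, Cd4 and Cd8a, were called higher. The defining T cell genes Cd3d, Cd3e, Cd3g and Trac were not called, and in CD36+ NK replicates 2 and 3 each was below every CD36- NK library, with Cd3d at 1.32 and 1.33 CPM against 5.53 to 7.52 CPM. The sum of 8 B cell genes was 4806 to 5383 and 3136 to 3587 CPM. The sum of 10 NK lineage genes was 827 to 1006 CPM in CD36+ NK and 4469 to 5653 CPM in CD36- NK, and all 10 were called lower. That of 5 liver-resident NK and ILC1 genes was 44.8 to 52.7 CPM in CD36+ NK and 65.0 to 74.1 CPM in CD36- NK. None of these 5 was called, and their log2 fold changes ran from -1.04 to 0.45, with a median of -0.90. No gene of these lists was at 0 in total. In bulk RNA, fewer cells of a type and less RNA per cell cannot be told apart. The part of the cell mixture, NK subsets included, in the results that follow was not tested.

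Of the 10 genes, 4 were DEGs, and all 4 were lower in CD36+ NK. These were Il12rb2, Il2rb, Il12rb1 and Stat4, which fell 4.71-fold, 4.61-fold, 3.12-fold and 3.07-fold. Of all tested genes, 2.98% were called lower, and 2.98% were called higher. The other 6 were not DEGs, and Il2rg and Jak3 among them passed the adjusted p alone, both lower, as did 5.44% of all tested genes in that direction. The groups had no overlap in 6 of the 10 genes, all lower, against 32.8% of all tested genes in either direction. The median log2 fold change over the 10 genes was -0.48, beside 0.012 over all tested genes.

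**Figure D1:**
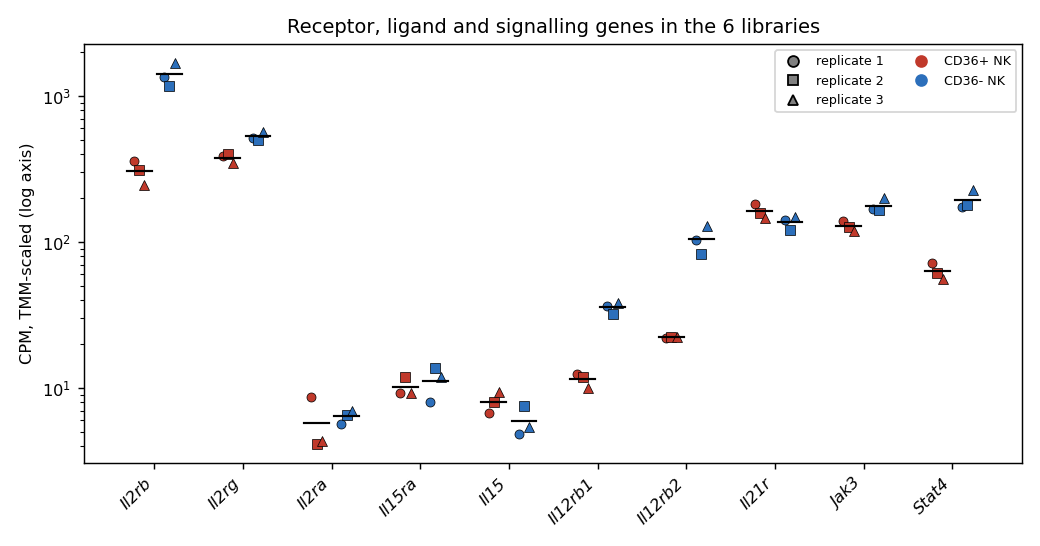
Level of each of the 10 genes in each library, in TMM-scaled CPM on a log axis. Red symbols are CD36+ NK and blue symbols CD36- NK, the symbol shape gives the replicate number and the bars give the group means (n = 3). Il2rb, Il12rb1, Il12rb2 and Stat4 are widely apart between the groups, Il2rg and Jak3 narrowly, and Il2ra, Il15ra, Il15 and Il21r overlap.

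The promoters of the called genes are shown because Il12rb2 and Stat4 fell together. The sequences are from RefSeq on GRCm38.p6 and run 5′ to 3′ on the strand of the gene, 250 bases before the start site and 50 after it. Of the 10 genes, 7 had an entry, with 9 start sites between them, and Il2rb, Il12rb1 and Il15 had none. Capitals mark TTCNNNGAA, the palindromic core that STAT proteins bind, searched on both strands without any other motif beside it. It is in the promoter of Il12rb2, on the minus strand at chr6:67376139-67376438, where its first base is 123 bases before the start site. It is at neither of the start sites of Stat4, on the plus strand at chr1:51986898-51987197 and chr1:52007990-52008289.
Il12rb2: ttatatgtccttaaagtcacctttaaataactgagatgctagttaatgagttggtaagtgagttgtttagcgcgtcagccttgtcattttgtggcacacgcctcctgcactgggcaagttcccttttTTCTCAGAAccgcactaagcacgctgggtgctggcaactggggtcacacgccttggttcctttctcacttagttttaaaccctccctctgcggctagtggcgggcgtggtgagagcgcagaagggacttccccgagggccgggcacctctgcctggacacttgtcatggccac
Stat4, upstream start: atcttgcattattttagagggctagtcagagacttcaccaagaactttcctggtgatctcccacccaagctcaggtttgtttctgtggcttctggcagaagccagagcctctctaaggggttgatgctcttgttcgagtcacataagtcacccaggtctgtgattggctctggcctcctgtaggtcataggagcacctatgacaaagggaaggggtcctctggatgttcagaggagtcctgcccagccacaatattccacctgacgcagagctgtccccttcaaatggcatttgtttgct
Stat4, downstream start: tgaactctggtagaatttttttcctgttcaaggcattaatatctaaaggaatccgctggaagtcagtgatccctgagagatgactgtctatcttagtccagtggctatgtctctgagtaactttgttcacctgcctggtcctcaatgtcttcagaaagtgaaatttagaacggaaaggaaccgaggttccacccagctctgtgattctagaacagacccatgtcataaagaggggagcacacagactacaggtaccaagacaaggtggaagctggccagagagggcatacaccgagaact

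The motif stood in 8.30% of all 32851 promoters, so 1 of 9 start sites here is a description and not a site of binding. The Il12rb2 promoter was 53.0% G and C with 12 CpG, and those of Stat4 were 50.7% and 46.0% with 2 and 4 CpG, beside medians of 52.7% and 7 over all promoters.

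Among the shared IL-2 and IL-15 chains, Il2rb fell far more than Il2rg. Il2rb (ENSMUSG00000068227, chromosome 15, from 78363456 to 78379471, minus strand, by the table's own coordinates, whose build is not named) encodes CD122, the signalling chain that IL-15 needs in NK cells. It was at 359, 310.1 and 247 CPM in CD36+ NK and at 1359.8, 1173 and 1684 CPM in CD36- NK. Every CD36+ NK library lay far below every CD36- NK library. The means were 305 ± 56.0 CPM (SD, n = 3) and 1406 ± 259 CPM (SD, n = 3), and the log2 fold change was -2.20 (SE 0.189, 95% interval -2.65 to -1.76, adjusted p = 0.00135 in edgeR). With 2970 to 17688 counts per library, counting error added little to its spread.

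Il2rg (ENSMUSG00000031304, chromosome X, from 100307984 to 100311861, minus strand) encodes the common gamma chain, which serves all lymphocytes. It stood at 388, 400.1 and 346 CPM in CD36+ NK and at 516, 503 and 568 CPM in CD36- NK. The groups did not overlap, but the gap between them was small beside that of Il2rb. On the log2 scale it differed by -0.49 (95% interval -0.72 to -0.25, edgeR adjusted p = 0.0275), a 1.40-fold difference under the fold threshold. The adjusted p rose to between 0.071 and 0.104 when CD36+ NK replicate 2 or 3 or CD36- NK replicate 1 or 3 was left out.

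Neither alpha chain gene passed the test, and both were low. Il2ra (ENSMUSG00000026770, chromosome 2, from 11647618 to 11698004, plus strand) encodes CD25, which completes the high-affinity IL-2 receptor. It was at 8.72, 4.12 and 4.32 CPM in CD36+ NK and at 5.69, 6.54 and 6.93 CPM in CD36- NK. The highest library was CD36+ NK replicate 1 and the lowest were the other CD36+ NK libraries, so that group lay on both sides of CD36- NK. edgeR gave a log2 fold change of -0.16 (SE 0.319, 95% interval -0.91 to 0.59, edgeR adjusted p = 0.802), and it was -0.61 without CD36+ NK replicate 1 (edgeR adjusted p = 0.128).

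CD36+ NK replicate 1 also stood apart in genes of T cells, the lymphocytes in which CD25 is best known. The summed level of 7 T cell genes was 301 CPM in that library and 25.6 to 45.3 CPM in the other 5. That of 5 genes of regulatory T cells and ILC2 was 23.8 CPM there and 4.69 to 11.8 CPM elsewhere, and Foxp3, the defining gene of regulatory T cells, was at 2.85 CPM there and at 0 in both other CD36+ NK libraries. The library was not apart in T cell genes alone. A list of 6 neutrophil genes was at 2382 CPM there and at 458.5 to 1824 CPM elsewhere. The erythroid list was at 779 CPM there and at 74.7 to 386 CPM elsewhere. The part of any of these cells in the Il2ra value was not tested.

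Il15ra (ENSMUSG00000023206, chromosome 2, from 11710101 to 11739128, plus strand) encodes the chain that binds IL-15 and presents it. It was at 9.17, 11.8 and 9.23 CPM in CD36+ NK and at 8.07, 13.6 and 11.8 CPM in CD36- NK. The highest and the lowest values were both in CD36- NK libraries. The fitted log2 fold change was -0.14 (SE 0.228, 95% interval -0.68 to 0.39, edgeR adjusted p = 0.751).

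The ligand gene Il15 was detected at a low level in every library. Il15 (ENSMUSG00000031712, chromosome 8, from 83058261 to 83129851, minus strand) is made mostly by myeloid and stromal cells, which present it to NK cells. It was at 6.76, 8.02 and 9.31 CPM in CD36+ NK and at 4.84, 7.52 and 5.37 CPM in CD36- NK. CD36- NK replicate 2 lay among the CD36+ NK libraries. The fitted log2 fold change was 0.44 (SE 0.231, 95% interval -0.10 to 0.99, edgeR adjusted p = 0.282), on 55 to 112 counts per library.

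The macrophage and Kupffer cell list had summed levels of 6736, 7836 and 9368 CPM in CD36+ NK and 5377, 5812 and 2472 CPM in CD36- NK. Within CD36+ NK the order of the libraries was the same for Il15 and for this list, and within CD36- NK replicate 2 was highest in both, but Il15 was lowest in replicate 1 and the list in replicate 3. The sum of a list of 6 monocyte genes did not follow Il15. It was 1662, 1082 and 869.9 CPM in CD36+ NK, the reverse of the Il15 order, and 2020, 1936 and 1135 CPM in CD36- NK. Of the list's 6 log2 fold changes 5 were negative, with a median of -0.92, and Ccr2 was called lower at -1.35 (edgeR adjusted p = 0.00649). The remaining gene, Cd14, went the other way and was called higher at 1.70 (edgeR adjusted p = 0.00167). A list of 9 dendritic cell genes summed to 108.9, 84.1 and 108.8 CPM in CD36+ NK and to 67.0, 87.7 and 52.5 CPM in CD36- NK, with overlap. Its genes Xcr1 and Clec9a were called higher, at 2.46 and 2.03 (edgeR adjusted p = 0.00763 and 0.0204). Cox6a2 of the same list was called lower at -1.52 (edgeR adjusted p = 0.0499). These are descriptions over 3 libraries a group. The part of macrophages, monocytes and dendritic cells in the Il15 level was not tested.

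Both IL-12 receptor genes fell. Il12rb1 (ENSMUSG00000000791, chromosome 8, from 71261093 to 71274068, plus strand) encodes the beta 1 chain, which the IL-23 receptor shares. It was at 12.4, 11.8 and 10.1 CPM in CD36+ NK and at 36.7, 32.1 and 38.4 CPM in CD36- NK. The groups were well apart and each was narrow. The means of 11.4 ± 1.21 and 35.7 ± 3.25 CPM (SD, n = 3 each) gave a log2 fold change of -1.64 (SE 0.136, edgeR adjusted p = 0.00117).

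Il12rb2 (ENSMUSG00000018341, chromosome 6, from 67268302 to 67353172, minus strand), whose promoter is printed above, encodes the beta 2 chain that recruits STAT4. It stood at 21.9, 22.5 and 22.4 CPM in CD36+ NK and at 102.9, 83.4 and 129 CPM in CD36- NK. The CD36+ NK libraries were nearly level, whereas CD36- NK varied among themselves. The log2 fold change was -2.24 (SE 0.165, 95% interval -2.62 to -1.85, edgeR adjusted p = 0.000726). Its span shares 6419 bases with Serbp1 on the other strand, and whether the counting used strand is not given in the sources used here. Serbp1 had a log2 fold change of -0.14 (edgeR adjusted p = 0.415).

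Il21r (ENSMUSG00000030745, chromosome 7, from 125202601 to 125232742, plus strand) encodes the chain that gives the IL-21 receptor its specificity, and B cells express it as well as NK cells. It was at 181, 158 and 147 CPM in CD36+ NK and at 142, 121 and 148 CPM in CD36- NK. CD36- NK replicate 3 lay just above the lowest CD36+ NK library. The fitted log2 fold change was 0.24 (SE 0.120, 95% interval -0.04 to 0.52, edgeR adjusted p = 0.261). Beside it, the B cell list summed to 4840, 5383 and 4806 CPM in CD36+ NK and to 3587, 3412 and 3136 CPM in CD36- NK. Its most abundant gene, Cd79a, had a log2 fold change of 0.49, and all 8 genes had a positive one. Of the 8, 1 was called, higher, where 2.98% of all tested genes were. With the adjusted p alone 6 passed, all higher, where 5.07% of all tested genes did. The orders of the libraries within a group differed, since CD36+ NK replicate 2 had the highest B cell sum without the highest Il21r, and CD36- NK replicate 3 had the lowest B cell sum with the highest Il21r of its group. The part of B cells in the Il21r level was not tested.

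**Figure D2:**
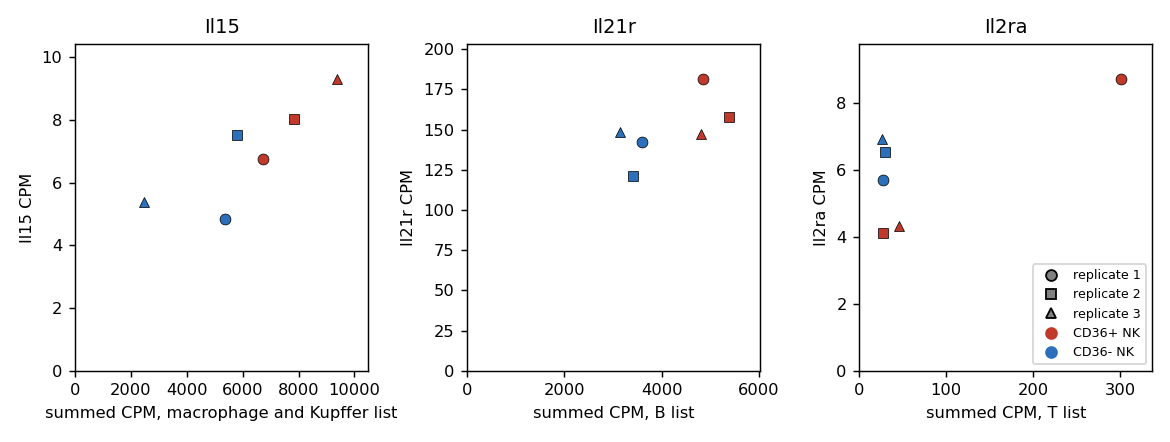
Each panel sets the CPM of a gene in each library (vertical) against the summed CPM of a list of marker genes in the same library (horizontal), for Il15 with the macrophage and Kupffer cell list, Il21r with the B cell list and Il2ra with the T cell list. CD36+ NK replicate 1 lies alone at 301 CPM on the T cell list, with the highest Il2ra at 8.72 CPM.

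Of the signalling genes downstream, Stat4 fell and Jak3 was lower by less than 2-fold. Jak3 (ENSMUSG00000031805, chromosome 8, from 72128940 to 72143219, plus strand) encodes the kinase bound to the common gamma chain. It was at 139, 126 and 118 CPM in CD36+ NK and at 168, 165 and 199 CPM in CD36- NK. The groups did not overlap, and the gap between the nearest libraries was small. Its log2 fold change was -0.47 (SE 0.112, edgeR adjusted p = 0.0405), and the adjusted p was between 0.0562 and 0.147 when any library other than CD36+ NK replicate 1 was left out. The change of Jak3, 1.39-fold, was close to the 1.40-fold of Il2rg, its partner in the receptor. Insl3 shares 1362 bases with the span of Jak3 on the same strand, but it had 10 to 22 counts per library and a log2 fold change of -0.73 (edgeR adjusted p = 0.274).

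Stat4 (ENSMUSG00000062939, chromosome 1, from 52026307 to 52146348, plus strand) encodes the transcription factor that IL-12 activates. It was at 72.0, 61.0 and 55.5 CPM in CD36+ NK and at 175, 179 and 226 CPM in CD36- NK. All CD36+ NK libraries were below all CD36- NK libraries by a wide gap. Its log2 fold change was -1.62 (SE 0.146, 95% interval -1.96 to -1.28, edgeR adjusted p = 0.00158). Gm28177 shares 29929 bases with its span on the same strand, so fragments of the 2 genes could be mixed, and it had 259 to 790 counts and a log2 fold change of 0.60 (edgeR adjusted p = 0.343).

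**Figure D3:**
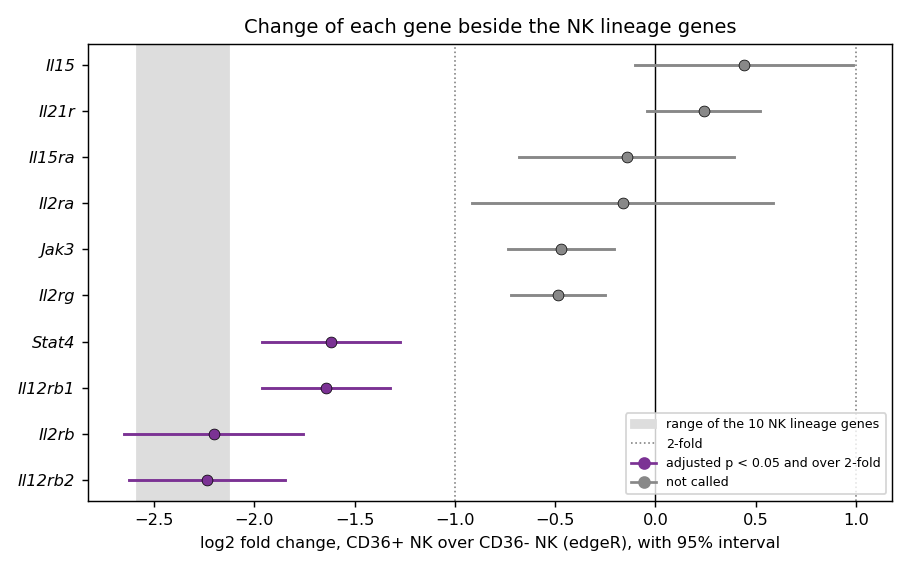
Log2 fold change of each gene, CD36+ NK over CD36- NK, from edgeR (points) with its 95% interval (lines). Purple genes were DEGs, grey genes were not, dotted lines mark a 2-fold change and the grey band is the range of the 10 NK lineage genes, from -2.59 to -2.12. Il12rb2 and Il2rb lie within the band, Il12rb1 and Stat4 to its right, and the other genes close to 0.

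Replicate 1 of both groups has a library name written in another form than the other replicates, so the difference was also taken within each form. The 4 DEGs were lower in both. Between the replicate 1 libraries, which allow no test, Il2rb, Il12rb2, Il12rb1 and Stat4 differed by -1.92, -2.23, -1.57 and -1.28 on the log2 scale. Over replicates 2 and 3 their log2 fold changes were -2.37, -2.25, -1.69 and -1.81, and all 4 were called (edgeR adjusted p from 0.0209 to 0.0268). Il2rg and Jak3 differed by -0.41 and -0.27 between the replicate 1 libraries, and over replicates 2 and 3 they had log2 fold changes of -0.53 and -0.59 and did not pass the test (edgeR adjusted p = 0.101 and 0.0899). Il2ra and Il15ra had opposite signs in the 2 forms, at 0.62 and 0.18 in replicate 1 and at -0.68 and -0.28 in the others. Il15 and Il21r were positive in both.

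The unequal changes appear in ratios taken within each library, for which CPM + 2 was divided by gene length so that genes could be compared. The length was the one implied by the deposited counts and FPKM, for example 12214 bases for Il15ra and 4608 for Il15. Which of 2 genes stands higher can depend on it, whereas the log2 difference between the groups does not. Before this scaling Il15 was below Il15ra in mean CPM, at 8.03 against 10.1 in CD36+ NK and 5.91 against 11.2 in CD36- NK. The ratio of Il2rb to Il2rg was 0.652, 0.548 and 0.505 in CD36+ NK and 1.85, 1.64 and 2.09 in CD36- NK, so the beta chain was below the gamma chain in every CD36+ NK library and above it in every CD36- NK library. Stat4 to Jak3 crossed in the same way, at 0.871, 0.815 and 0.795 against 1.73, 1.79 and 1.88. The ratio of the IL-12 receptor chains, Il12rb2 to Il12rb1, was 1.92, 2.04 and 2.34 in CD36+ NK and 3.13, 2.89 and 3.74 in CD36- NK, with the beta 2 chain above the beta 1 chain throughout.

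Other ratios were higher in CD36+ NK. Il21r to Il2rg was 0.336, 0.284 and 0.306 in CD36+ NK and 0.198, 0.174 and 0.189 in CD36- NK, and Il15 to Il15ra was 2.08, 1.92 and 2.67 against 1.80, 1.62 and 1.41. Il15ra to Il2rb was 0.0131, 0.0187 and 0.0190 in CD36+ NK, against 0.00312, 0.00560 and 0.00345 in CD36- NK. The groups overlapped in Il2ra to Il2rg, with a log2 difference of 0.32 (exact permutation test, p = 0.3). The 6 others did not overlap, with log2 differences of -1.71, -1.12, -0.63, 0.72, 0.46 and 2.09 in the order given, each at p = 0.1 in a two-sided exact permutation test, the smallest p that 3 libraries against 3 allow. Adjusted over the 7 ratios, p was 0.117 for these 6 and 0.3 for Il2ra to Il2rg, so no ratio could pass 0.05 by this test. The gaps were nonetheless wide beside the spread in Il2rb to Il2rg, at log2 means of -0.82 ± 0.188 and 0.89 ± 0.174, and in Stat4 to Jak3, at -0.28 ± 0.068 and 0.85 ± 0.062 (SD, n = 3 each).

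**Figure D4:**
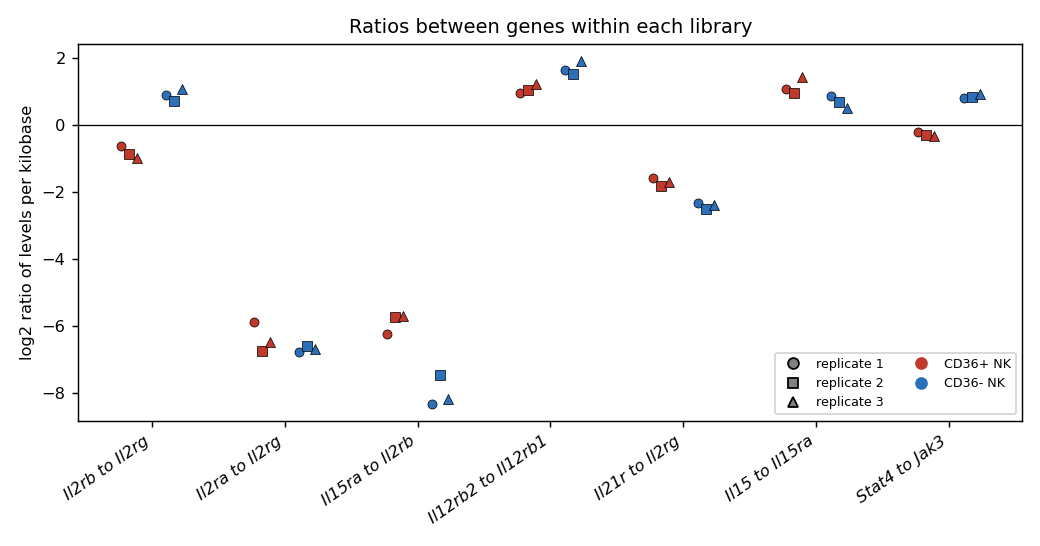
Log2 ratio of the per-kilobase levels of 2 genes in each library, with CD36+ NK in red, CD36- NK in blue and symbol shapes for the replicate numbers. The line at 0 marks equal levels. Il2rb to Il2rg and Stat4 to Jak3 lie below the line in CD36+ NK and above it in CD36- NK, and Il2ra to Il2rg overlaps between the groups.

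The order of the genes by level per kilobase, which rests on the same lengths, differed between the fractions at the top and was the same at the bottom. In CD36+ NK the order was Il2rg at a mean of 104 CPM per kilobase, Il2rb at 59.3, Il21r at 31.9, Jak3 at 16.3, Stat4 at 13.3 and Il12rb2 at 4.94. In CD36- NK it was Il2rb at 273, Il2rg at 146, Stat4 at 40.9, Il21r at 27.0, Il12rb2 at 23.3 and Jak3 at 22.6. Among these, Jak3 and Stat4 overlapped with each other in CD36+ NK, and Il21r with Il12rb2 and Il12rb2 with Jak3 in CD36- NK, while the other neighbours did not. Il12rb1, Il15, Il2ra and Il15ra followed in this order in both, at 2.20, 1.74, 0.965 and 0.825 CPM per kilobase in CD36+ NK and 6.86, 1.28, 1.08 and 0.914 in CD36- NK. Neighbours among these 4 overlapped, except Il12rb1 and Il15 in CD36- NK.

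The 10 genes were then set against the NK lineage list, none of whose genes is among them, by subtracting the mean log2(CPM + 2) of that list in the same library. The list itself fell by 2.37 on this scale. Il2rb differed by 0.17 (two-sided exact permutation test, p = 0.5) and Il12rb2 by 0.25 (exact permutation test, p = 0.2), and in both the groups overlapped. Their log2 fold changes of -2.20 and -2.24 lay within the range of the NK lineage genes, from -2.59 to -2.12. The other 8 genes lay higher in all CD36+ NK libraries, with differences of 0.78 for Stat4 and 0.87 for Il12rb1 and of 1.88 to 2.72 for the other 6, each at the smallest possible p of 0.1. On this scale 99.2% of all tested genes were higher without overlap, so the count of 8 is not a result about these genes.

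Beyond the 10 genes, 54 others of the same pathways were taken in 8 lists by role, and 46 of them were tested. Of the 46, 8 were DEGs, all lower in CD36+ NK, where 2.98% of all tested genes were called lower and 2.98% higher. The median log2 fold change over the 46 genes was -0.14, beside 0.012 over all tested genes. With the adjusted p alone 14 passed, 12 lower and 2 higher, where 5.44% and 5.07% of all tested genes did.

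The other JAK kinases did not move together. Jak1, which binds CD122 and the IL-21 receptor, was at 601, 562 and 546 CPM in CD36+ NK and at 1118, 1048 and 1332 CPM in CD36- NK. All CD36+ NK libraries were below all CD36- NK libraries. The log2 fold change was -1.03 (SE 0.117, edgeR adjusted p = 0.00392), just past the fold threshold and under it, at -0.93, without CD36- NK replicate 3. Tyk2, which binds the IL-12 receptor beta 1 chain, had a log2 fold change of -0.77 (edgeR adjusted p = 0.00429) and stayed under 2-fold, and Jak2, which binds the beta 2 chain, one of -0.02 (edgeR adjusted p = 0.929).

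None of the 5 other STAT genes passed the test, and their log2 fold changes ran from -0.15 to 0.33. Stat5a and Stat5b encode the main factors of IL-2 and IL-15, and Stat3 that of IL-21. Stat5a was at 54.1, 51.4 and 54.0 CPM in CD36+ NK and 53.8, 63.3 and 59.9 CPM in CD36- NK, and Stat5b was at 164, 190 and 190 CPM against 152, 160 and 151 CPM. Stat3 had a log2 fold change of -0.01 (SE 0.081). Stat4 was thus the 1 gene of its family in these lists that passed.

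Of 9 genes known to be induced through STAT4, 6 were DEGs, all lower, where 2.98% of all tested genes were called lower. The 6 were Ifng, Il18rap, Prf1, Il18r1, Gzmb and Tbx21, with log2 fold changes from -2.58 to -2.28, within the range of the 10 NK lineage genes, from -2.59 to -2.12. The list's log2 fold changes were negative in 8 of 9 genes, with a median of -2.34, and the 6 DEGs are also well known as genes of NK effector function. Furin, Hlx and Irf1 had log2 fold changes of -0.04, 0.39 and -0.25 and did not pass (edgeR adjusted p = 0.816, 0.281 and 0.162). Hlx and Irf1 had no overlap between the groups, Hlx higher and Irf1 lower in CD36+ NK, as 32.8% of all tested genes had none in either direction.

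Of 8 genes known to be induced through STAT5, 1 was a DEG, lower, where 2.98% of all tested genes were called lower. The list's 8 log2 fold changes were negative in 6 genes and positive in 2, with a median of -0.45. The DEG was Pim2, a survival kinase, with a log2 fold change of -1.05 (SE 0.147, edgeR adjusted p = 0.00753), at 41.9, 40.2 and 35.3 CPM in CD36+ NK and 65.8, 83.3 and 93.8 CPM in CD36- NK. It was under the fold threshold when replicate 3 of CD36+ NK (-0.98) or of CD36- NK (-0.94) was left out. Ccnd2, a cyclin gene, passed the adjusted p alone at -0.53 (edgeR adjusted p = 0.0175). The survival genes Bcl2, Bcl2l1 and Mcl1 had log2 fold changes of -0.36, -0.73 and 0.44 and did not pass (edgeR adjusted p = 0.123, 0.114 and 0.0538).

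Of the 7 negative regulators none was a DEG, with a median log2 fold change of -0.35, 4 genes negative and 3 positive. Ptpn2, a phosphatase of JAK and STAT proteins, passed the adjusted p alone at -0.52 (edgeR adjusted p = 0.0245). Cish, a feedback inhibitor that IL-15 induces, had a log2 fold change of -0.57 (SE 0.428) and Socs1 one of -0.72 (SE 0.213), and neither passed (edgeR adjusted p = 0.459 and 0.0758). In the other direction, Ptpn6, which encodes the phosphatase SHP-1, was higher in each CD36+ NK library at 0.53 but just short of the threshold (edgeR adjusted p = 0.0512), and Socs3 was at 0.48 with overlap (edgeR adjusted p = 0.273). Of 8 adaptors and PI3K-mTOR genes none was a DEG, and Pik3r1 at -0.87 and Gab2 at 0.77 passed the adjusted p alone (edgeR adjusted p = 0.011 and 0.0396).

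The other receptor chains held no DEG among 4 tested genes. Il9r, whose protein pairs with the common gamma chain for IL-9, was at 107, 139 and 141 CPM in CD36+ NK and 61.2, 76.7 and 71.1 CPM in CD36- NK. Its log2 fold change of 0.89 (SE 0.141, edgeR adjusted p = 0.0115) was under the fold threshold. Il7r, the IL-7 receptor chain, was at 52.2, 11.6 and 9.15 CPM in CD36+ NK and 28.7, 38.8 and 41.6 CPM in CD36- NK. The highest value was again in CD36+ NK replicate 1, the library with the highest T cell, neutrophil and erythroid lists. Il7r had a log2 fold change of -0.59 (edgeR adjusted p = 0.618) with that library and of -1.82 (edgeR adjusted p = 0.00653) without it.

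Of the 9 other cytokines, 7 had too few counts to be tested, among them Il2 and Il21, and Il9 had no count in any library. Il12a, which encodes the p35 subunit of IL-12, had a log2 fold change of 0.07. The level of Il12b, which encodes the p40 subunit, was 0.890 to 1.55 CPM in CD36+ NK and 0.195 to 0.615 CPM in CD36- NK. It was higher in each CD36+ NK library, but the log2 fold change of 1.80 (SE 0.492) did not pass (edgeR adjusted p = 0.0622). With edgeR's exact test Il12b was called (adjusted p = 0.00912).

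**Figure D5:**
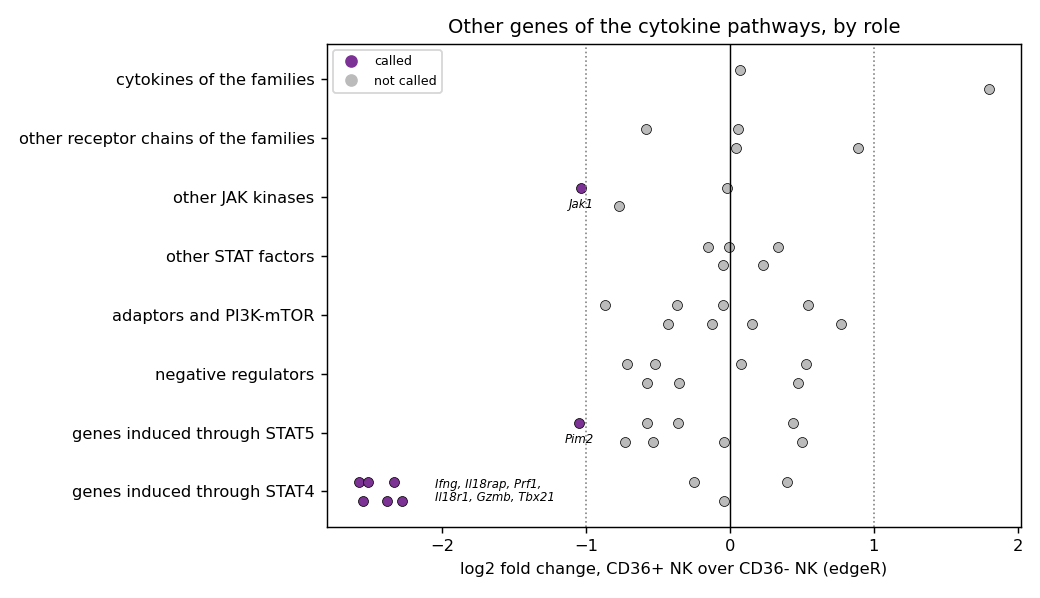
Log2 fold change, CD36+ NK over CD36- NK, of the 46 tested genes of the 8 pathway lists, 1 point a gene. Purple points were DEGs and are named, grey points were not, and dotted lines mark a 2-fold change. The 6 DEGs of the STAT4 list lie at -2.58 to -2.28, within the range of the NK lineage genes, while the other STAT factors lie close to 0.

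In the promoters of these genes, TTCNNNGAA was found for 9 of the 44 with an entry, beside 9.55% of all genes with an entry. The sites are shown for Cish, because it is a textbook STAT5 target, and for Ifng, Il18r1 and Gzmb, because these were called lower, with the motif in capitals and up to 8 bases on either side, cut at the end of the window. The other genes with the motif are not shown. Of these, Il7r, Mtor, Socs3 and Irf1 were not called, like Cish, and Il4 was not tested. Both stretches of Cish overlap each other. Those of Cish are at chr9:107296651-107296675 and chr9:107296662-107296686, those of Il18r1 at chr1:40465779-40465803 and chr1:40465846-40465870, that of Ifng at chr10:118440796-118440813, all on the plus strand, and that of Gzmb at chr14:56262285-56262305 on the minus strand.
Cish, first: gcccagttTTCCTGGAAagttcttg
Cish, second: ctggaaagTTCTTGGAAatctgtca
Ifng: tTTCAGAGAAtcccacaa
Il18r1, first: ggggttagTTCTGGGAActgtggag
Il18r1, second: tacaggtcTTCCCAGAActgaaagc
Gzmb: caggagttTTCATAGAAagca

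The Cish and Gzmb sites are within the 50 bases after the start site, that of Ifng is 249 bases before it and those of Il18r1 are 219 and 152 bases before it. The called genes Prf1, Tbx21, Il18rap, Jak1 and Pim2 hold no such letters in their windows, which says nothing of the factors that act on them.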

How the data were processed

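Libraries were made from total RNA, 3 for each fraction. Per the methods, the authors filtered reads with Seqtk, mapped them with HISAT2 (2.0.4 in the submitters' processing notes) and counted fragments per gene with StringTie. They deposited these counts without normalization, beside FPKM values that the authors computed from them. The deposited FPKM entered only the gene lengths, which were computed from counts and FPKM, and an alternative for the ratios. The gene identifiers are mouse ones, the submitters' processing notes name a rat assembly, and the build of the table's coordinates is not given in the sources used here. The lines of 2 genes were broken and were rejoined. Columns were mapped to samples by library name, and groups and replicate numbers were taken from the titles.

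Counts were analysed with edgeR 4.0.16 in R 4.3.3. Genes were kept by filterByExpr with a minimum count of 10, libraries were scaled by TMM, and the quasi-likelihood test was run without a block, with Benjamini-Hochberg adjustment over 14761 genes. The methods' thresholds for DEGs were used, an adjusted p under 0.05 and more than a 2-fold difference. Ratios and levels relative to the NK lineage list used log2 of CPM with a pseudocount of 2 and two-sided exact permutation tests in Python 3.11.15, and the linear ratios printed are those log2 values turned back. Total counts were 10292480 to 13787189 per library, and intervals and spreads cover these libraries only. No replicate repeated another (chi-square over degrees of freedom from 14.8 to 29.2). On simulated counts of 14761 genes in this comparison, 195 of 200 genes changed 4-fold were called, with 10 false calls.

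The text names all 10 genes of the set, Cd36 and genes of the pathway lists, called ones first. It also names the most abundant genes of marker lists that move with a result. Chosen after their values were seen were Foxp3, the CD3 genes, Trac, Cd14, Ccr2, Xcr1, Clec9a, Cox6a2 and the genes that overlap the set. The set and the lists were chosen with earlier results of these data known. The alternatives comprised DESeq2 1.42.0, the exact test of edgeR, other normalization and filters, 2 blocks, other pseudocounts and each library left out. Analysis of protein sequence was not done here.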

Additional observations from a re-analysis of the deposited data

How the results depend on the processing

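Il2rb, Il12rb1, Il12rb2 and Stat4 were the same 4 genes called in each of the 14 other fits, also when any 1 library was left out, and with the adjusted p alone 6 of the 10 genes passed. Over all tested genes, 880 DEGs became 560 with the replicate number as a block, 433 with replicates 2 and 3 only (added after the data were seen), 1552 with the adjusted p alone, and 417 to 1160 with 1 library left out. They were 418 without CD36+ NK replicate 2, 451 without CD36+ NK replicate 3, 417 without CD36- NK replicate 1 and 431 without CD36- NK replicate 3. The pathway lists had 8 DEGs, 14 with the adjusted p alone and 6 to 9 with 1 library left out. The cause of these shifts was not tested. Il2ra turned to 0.03 without CD36+ NK replicate 2 and 0.004 without CD36+ NK replicate 3 on the log2 scale, in a range of -0.607 to 0.03, and Il15ra to 0.023 without CD36- NK replicate 2, in a range of -0.347 to 0.023. The ratios kept their direction under all alternatives run, and the count of genes not overlapping relative to the NK lineage list was 8 or 9. The log2 fold change of Cd36 was 3.04 to 3.69.

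Same-numbered libraries deviated from their group means with correlations of 0.367, 0.0871 and -0.086 across genes, so the numbers were not taken as pairs. The names of 2 CD36- NK columns could be read as titles rather than library names, which would renumber the replicates of that group and change these correlations and the block. With the replicate number as a block, the adjusted p of Il2rg was 0.069 and that of Jak3 0.0859 (edgeR), and no other of the 10 genes changed its side of 0.05. Without a filter on low counts that of Jak3 was 0.0601. Leaving out a library of a group leaves 2, and Il15, Il15ra and Il2ra rest on 52 to 161 counts per library, which limits what could be detected for them.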
